A study of Homo sapiens with 6 samples.

Results

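The mitotic spindle, kinetochore and cytokinesis genes described here are 60 genes whose products pull the chromosomes apart and then divide the cell. They were listed by gene name and sorted into 10 subgroups by the role of the protein. All 60 were present among the 63677 Ensembl identifiers of the count table, and all 60 were among the 21729 identifiers whose counts summed to more than 10, which were the genes tested.

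RNA was sequenced from UWB1.289 cells, a human ovarian cancer cell line that the study describes as BRCA1-deficient, so that all 6 samples share this background. 3 samples had been treated for 24 h with Olaparib, an inhibitor of the poly(ADP-ribose) polymerase PARP1, and 3 with DMSO, the solvent of the drug. The sample labels give the dose as 4 µM and the genotype of all 6 samples as WT, whereas the design text of the series gives the dose as 10 µM. The study's methods describe 3 independent replicates per condition of this 1 cell line. Each library held 35360458 to 39640775 counts, and each pair of replicates differed by more than sampling noise, so all 6 were used. Of 8 epithelial markers, all were above 3 counts in every group, with a summed level of 3226 to 3418 FPKM (read counts per kilobase of exon, scaled to library size) per sample. Markers of other cell types had lower sums, 4.18 to 4.74 FPKM for 6 fibroblast genes, 0.895 to 1.30 FPKM for 6 immune genes and 7.22 to 7.92 FPKM for 4 endothelial genes. PDGFRB, DCN, LUM, CD3E and PECAM1 had 3 counts or fewer in each sample. Not every such marker was near 0. In DMSO the endothelial marker CDH5 had a mean of 7.14 FPKM and the fibroblast marker COL1A2 3.61. The epithelial markers CDH1 and MUC16 had 5.71 and 1.00. PAX8, an epithelial marker, and VWF, an endothelial one, were themselves called higher after Olaparib, and the part of these markers in the results below was not tested.

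A dividing cell builds a bipolar spindle of microtubules that attach to the chromosomes at kinetochores, protein platforms assembled on the centromeres. The spindle checkpoint holds back the anaphase-promoting complex (APC/C), a ubiquitin ligase, until every kinetochore is attached, and the APC/C then releases separase, which cuts the cohesin that joins the sister chromatids. Kinesin motors move and shape the microtubules throughout, condensin compacts the chromosomes, and a ring of actin and myosin placed by the central spindle pinches the cell apart. Most of these genes are transcribed in G2 and M phase, through promoters that carry a cell cycle genes homology region (CHR), an element bound by the DREAM repressor complex and by the MYBL2 and FOXM1 activators, and often CCAAT boxes, which are bound by NF-Y.

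The promoters are shown here because mitotic genes are known to share these elements. The set of RefSeq promoter windows used here gave 300 bases, 250 before and 50 after the transcription start, for 52 of the 60 members on GRCh38.p14. This set held none for AURKA, BIRC5, BUB3, KNL1, RACGAP1, TPX2, TTK and UBE2C, which does not mean that RefSeq lacks a start for them. For the CHR the letters TTTGAA were searched on both strands. A known variant of the element, spelled TTCGAA, was also counted as a CHR. Other spellings were not searched, so a window counted as without a CHR lacks only these letters. The CCAAT box was searched by the letters of its name, also on both strands, and was counted apart from the CHR. A CHR stood in 40 of the 52 windows (76.9%), against 16.6% of the windows of all 27305 genes. A CCAAT box stood in 39 (75%), against 35.7% of all, and both stood in 32 (61.5%), against 6.58%. Where a gene had several windows the first was used, and counting any window left the members' share with a CHR at 40 of 52 and moved that of all genes to 19.5%. Among 33 genes of the S phase list described further on, which is a cell cycle list of another phase, 2 windows held a CHR (6.06%) and 23 a CCAAT box (69.7%).

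The first 4 stretches below end at the base before the RefSeq start of members that rose after Olaparib, with CHR and CCAAT letters of either strand in capitals, read 5′ to 3′ on the strand of the gene. They were chosen after the values were seen. CDC20 and KIF4A show a start with CHR letters, and KIF20A one without the searched letters. In BUB1 the CHR letters lie past the start (TTCGAA at position 2 of the transcript).
CDC20, chr1:43358871-43358980, plus strand: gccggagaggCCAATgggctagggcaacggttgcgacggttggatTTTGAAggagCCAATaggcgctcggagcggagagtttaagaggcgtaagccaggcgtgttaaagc
KIF4A, chrX:70289994-70290103, plus strand: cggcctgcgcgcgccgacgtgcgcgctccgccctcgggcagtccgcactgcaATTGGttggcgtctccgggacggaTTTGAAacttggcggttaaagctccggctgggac
KIF20A, chr5:138179002-138179111, plus strand: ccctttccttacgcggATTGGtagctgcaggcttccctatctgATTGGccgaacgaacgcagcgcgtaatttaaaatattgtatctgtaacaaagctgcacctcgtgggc
BUB1, chr2:110678064-110678173, minus strand: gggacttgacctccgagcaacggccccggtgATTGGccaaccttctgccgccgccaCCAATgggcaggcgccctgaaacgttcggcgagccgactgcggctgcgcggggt
Of the 11 members with a window that rose, 8 held a CHR (72.7%), and the 3 without either searched spelling were KIF20A, KIF2C and NEK2. For HMMR and PLK1, 30 bases around the CHR are given, with the CHR in capitals. The HMMR site holds TTTGAA in direct repeat, starting 28 and 22 bases before the transcription start, and the PLK1 site starts 29 bases before it.
HMMR, chr5:163460595-163460624, plus strand: gtggggagaTTTGAATTTGAAaccggtagg
PLK1, chr16:23678848-23678877, plus strand: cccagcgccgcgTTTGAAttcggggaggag
The next 4 stretches come from members that did not pass the test, also chosen after the values were seen, and they hold the same letters at a distance from the start like that in KIF4A, HMMR and PLK1. The KIF11 CHR starts 28 bases, that of CKS2 29, that of ESPL1 31 and that of NCAPG 35 bases before it.
KIF11, chr10:92593020-92593129, plus strand: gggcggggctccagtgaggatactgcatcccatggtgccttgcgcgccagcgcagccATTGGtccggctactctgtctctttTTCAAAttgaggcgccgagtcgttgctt
CKS2, chr9:89311085-89311194, plus strand: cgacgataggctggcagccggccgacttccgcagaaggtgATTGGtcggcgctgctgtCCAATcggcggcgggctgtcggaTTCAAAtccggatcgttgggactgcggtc
ESPL1, chr12:53268189-53268298, plus strand: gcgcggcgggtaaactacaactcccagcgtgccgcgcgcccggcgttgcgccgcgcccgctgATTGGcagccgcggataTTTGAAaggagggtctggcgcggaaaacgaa
NCAPG, chr4:17810869-17810978, plus strand: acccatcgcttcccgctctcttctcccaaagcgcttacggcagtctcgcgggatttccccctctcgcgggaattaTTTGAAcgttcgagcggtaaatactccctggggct
Of the 41 windows of members that did not pass the test, 32 held a CHR (78.0%). Among members with a window, the letters were thus about as frequent in those that rose as in those that did not pass. Of the members without a window, AURKA, BIRC5, BUB3, TPX2 and UBE2C rose, and KNL1, RACGAP1 and TTK did not pass, so the comparison leaves out more of the members that rose. By subgroup, a CHR stood in 6 of 10 kinetochore windows, 8 of 10 kinesin windows and 4 of 4 condensin windows. A CCAAT box stood in 1 of the 4 condensin windows, against 6 of 10 kinetochore and 8 of 10 kinesin windows. A match of letters is a description and does not show that a factor binds there.

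**Figure D1:**
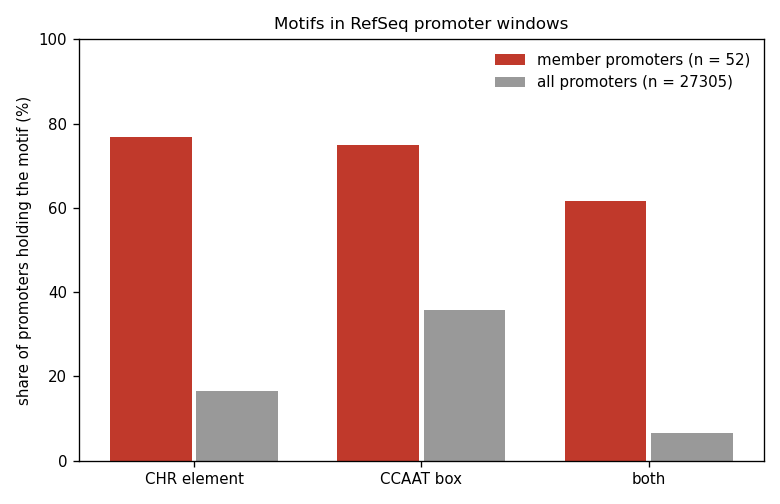
Share of RefSeq promoter windows of 300 bases (vertical axis, percent) that hold a CHR, a CCAAT box, or both, on either strand. Red bars are the 52 member genes with a window and grey bars all 27305 genes, and the members' bar is taller for each motif, with 61.5% against 6.58% for both together.

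After Olaparib some of the mitotic genes were slightly higher. 16 of the 60 members rose at an adjusted p under 0.05 (edgeR quasi-likelihood test, Benjamini-Hochberg over all 21729 genes), where 2.15% of all genes tested rose, and 0 fell, where 1.21% of all genes fell. The rises were small, from 7.37% for NCAPD2 to 20.9% for CKAP5. 1 member, CKAP5, also exceeded a 1.2-fold change, a level that 0.723% of all genes passed upward and 0.483% downward, and 0 members passed it downward. Among the 6641 genes counted at or above the lowest member, 4.22% rose, 1.66% fell, and 0.572% and 0.166% also passed 1.2-fold upward and downward. With bulk RNA, more cells in G2 and M phase and more mitotic RNA per cell cannot be told apart.

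Relative to the geometric mean of the DMSO samples, on the log2 scale, the median member stood at 0.096, 0.063 and 0.076 in the 3 Olaparib samples and at -0.00074, -0.0058 and 0.017 in the 3 DMSO samples, so the groups did not overlap. In the fit the median log2 fold change of the 60 members was 0.079, or 5.64%, with 53 members above 0 and 7 below, while the median of all genes tested was -0.0042. Before adjustment 30 members lay above 0 and 0 below at p under 0.05, and DESeq2 and limma voom each called 16 higher and 0 lower. The share of all genes past an unadjusted p of 0.05 was not counted. The unadjusted counts, here and for the lists below, therefore have no background beside them. The 3 Olaparib values all lay above the 3 DMSO values for 33 members, where this holds for 10.0% of all genes, and all lay below for 1 member, ESPL1, where this holds for 9.29%. Among the same 6641 genes, 16.4% and 9.95% had groups that separated upward and downward. With 3 samples against 3, an exact permutation test of a single gene cannot go below 0.1. Leaving out 1 sample left 10 to 15 members called higher and 0 called lower, with 10 when DMSO replicate 3 was left out. These fits called 398 to 870 of all genes in either direction, and the fit with every sample called 730. CKAP5 stood under 1.2-fold without Olaparib replicate 1 or without DMSO replicate 3.

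**Figure D2:**
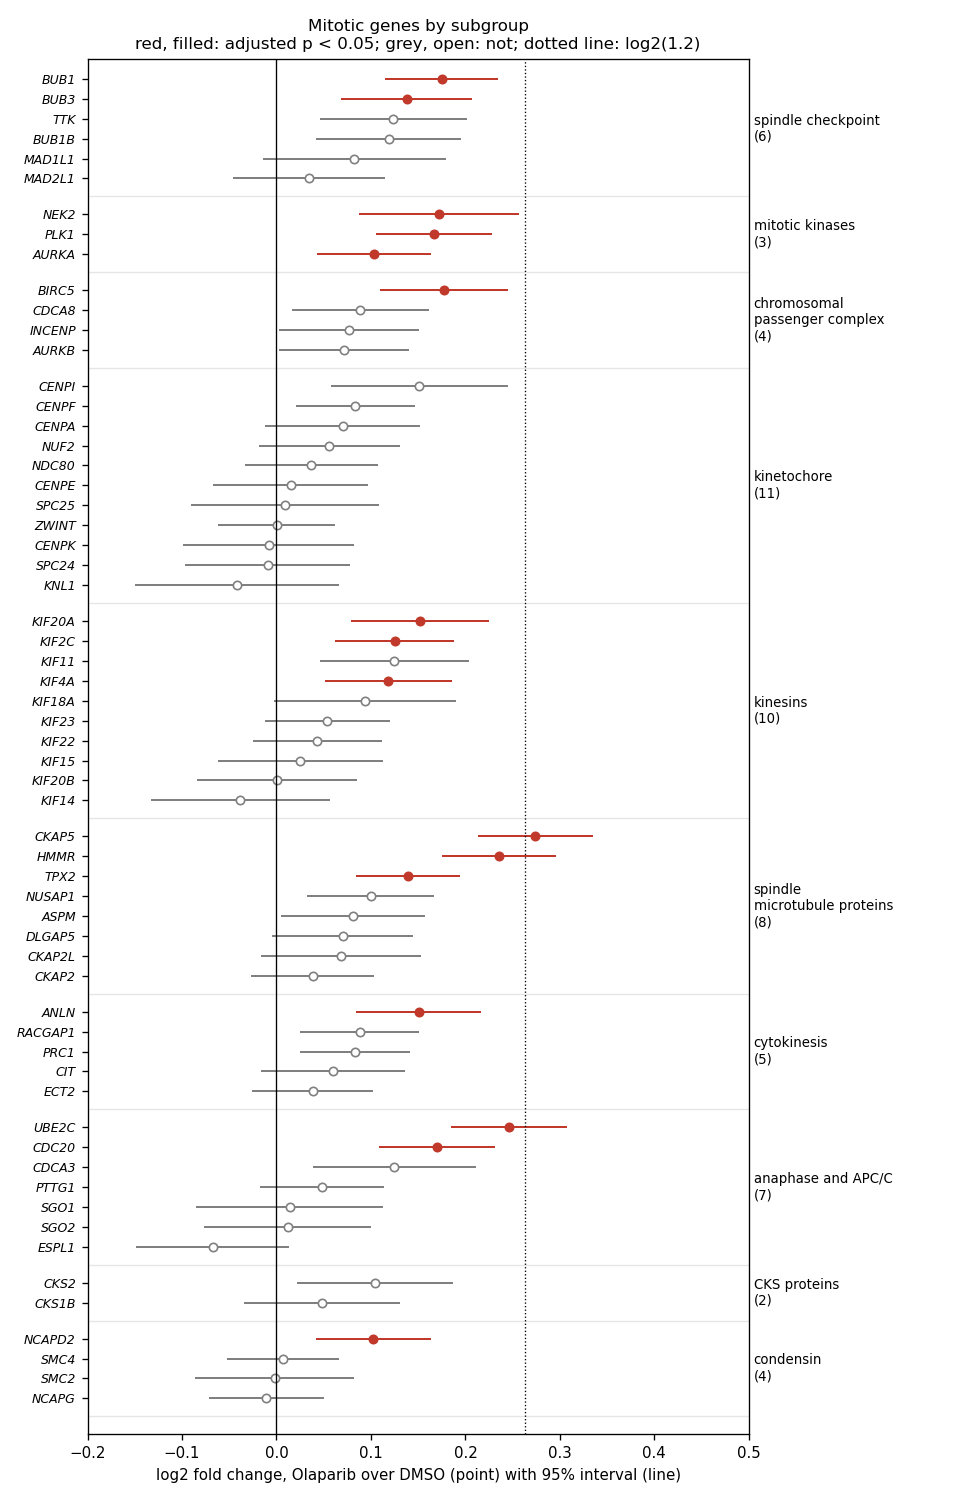
Log2 fold change of each of the 60 members, Olaparib over DMSO (horizontal axis), with its 95% interval (line), by subgroup with the number of genes in parentheses. Filled red points passed an adjusted p of 0.05 and open grey points did not; the filled points all lie right of 0, the kinetochore block holds none, and CKAP5 alone lies right of the dotted line at log2(1.2).

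The spindle checkpoint genes encode the proteins that sense unattached kinetochores, and 2 of the 6 rose. BUB1, a kinase that recruits other checkpoint proteins to the kinetochore, had normalized counts of 9549.6, 9228 and 9400.0 in the Olaparib samples and 8237, 8357 and 8362 in the DMSO samples. Every Olaparib value lay above every DMSO value, and the log2 fold change was 0.18 ± 0.029 (SE) with an adjusted p of 0.000170. BUB3, the adaptor that carries BUB1 and BUBR1 to the kinetochore, had normalized counts of 5911, 5575 and 5879.8 with Olaparib and 5169, 5173 and 5442 with DMSO. Its groups were also separate, by a smaller margin, with a log2 fold change of 0.14 ± 0.033 and an adjusted p of 0.0131, which rose to 0.0798 without Olaparib replicate 3 and to 0.115 without DMSO replicate 2.

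The other 4 checkpoint genes did not pass the test. The log2 fold change of TTK, the MPS1 kinase that starts checkpoint signaling, was 0.12 ± 0.038 (adjusted p 0.0626), and that of BUB1B, which encodes BUBR1, was 0.12 ± 0.037 (adjusted p 0.0770). For both genes the groups did not overlap, and TTK passed the test without Olaparib replicate 2 (0.0175), with robust dispersions (0.0352) and with no filter on low counts (0.0285). MAD1L1 and MAD2L1, whose products form the template of the checkpoint inhibitor, had log2 fold changes of 0.082 ± 0.047 and 0.035 ± 0.039, and their groups overlapped. Of the exon bases of MAD1L1, 43.2% also belong to other annotated genes, and of those of BUB1B, 10.2%.

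All 3 genes sorted into the mitotic kinase subgroup rose. Among the kinases sorted by role into other subgroups, BUB1 rose, and TTK, AURKB and CIT did not pass the test. PLK1, the polo-like kinase that drives centrosome maturation and mitotic progression, had normalized counts of 11961, 12439.7 and 12236 in Olaparib and 10441, 11099.6 and 11101 in DMSO. The groups were separate and the log2 fold change was 0.17 ± 0.030 (adjusted p 0.000471). NEK2, which splits the centrosomes at mitotic entry, was measured at a lower count, 2034, 1942 and 2079.5 after Olaparib against 1795, 1786 and 1795 in DMSO. Its DMSO values lay within 10 counts of each other and below all Olaparib values, which were more spread, and the log2 fold change was 0.17 ± 0.041 (adjusted p 0.0115). AURKA, the Aurora kinase of the spindle poles, had 8973, 8948 and 9149.6 against 8283, 8410.2 and 8508. Its groups were separate with a smaller difference, a log2 fold change of 0.10 ± 0.029 (adjusted p 0.0391). The NEK2 call was lost without Olaparib replicate 3, DMSO replicate 2 or DMSO replicate 3, with an adjusted p of up to 0.132. The AURKA call was lost without any 1 sample other than Olaparib replicate 1 (adjusted p up to 0.189) and with upper quartile scaling (0.0602). PLK1 was called in each of these fits, and 12.8% of its exon bases also belong to other genes.

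The chromosomal passenger complex, which carries Aurora B to the inner centromere and later to the central spindle, had 1 of 4 members called. BIRC5, which encodes survivin, the subunit that docks the complex on chromatin, had normalized counts of 5734, 6038 and 5899.7 with Olaparib against 5272, 5059 and 5295 with DMSO. The groups did not overlap, and the log2 fold change was 0.18 ± 0.033 (adjusted p 0.000725), called in every fit with 1 sample left out. The other subunits had separate groups too but did not pass the test. Their log2 fold changes were 0.089 ± 0.035 for CDCA8 (borealin), 0.077 ± 0.036 for INCENP, the scaffold, and 0.071 ± 0.033 for AURKB, the kinase, with adjusted p-values of 0.190, 0.299 and 0.299. The 95% intervals of these 3 genes all lay above 0, from a lower end of 0.0035 to an upper end of 0.16.

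Of the 11 kinetochore genes, 0 rose and 0 fell in edgeR, DESeq2 and limma voom alike. In edgeR 4.22% of the 6641 genes counted at or above the lowest member rose and 1.66% fell. All but CENPF, NDC80 and ZWINT were among the 30 members with the lower counts, of which 1 rose. At an unadjusted p under 0.05, 2 kinetochore genes were higher, CENPI and CENPF. CENPI, a subunit of the inner kinetochore that helps to load CENPA, had the largest difference of the subgroup. Its normalized counts were 1469.9, 1381 and 1363 after Olaparib and 1305, 1274 and 1217 in DMSO, groups that did not overlap. The log2 fold change was 0.15 ± 0.045 with an adjusted p of 0.0591, and the gene passed the test with robust dispersions (0.0429) and with no filter on low counts (0.0433). CENPF, a large outer kinetochore protein that peaks in G2 and M phase, lay 0.084 ± 0.030 above DMSO on the log2 scale (adjusted p 0.144), and CENPA, the histone variant of centromeres, lay 0.070 ± 0.040 above it (adjusted p 0.435).

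The microtubule-binding core of the kinetochore lay near 0. Of the NDC80 complex, NUF2 and NDC80 had log2 fold changes of 0.056 ± 0.036 and 0.037 ± 0.034, and SPC25 and SPC24 had 0.0088 ± 0.049 and -0.0092 ± 0.042. ZWINT, which links the core to the checkpoint, was counted in nearly equal numbers, 6458 to 6481 after Olaparib and 6445 to 6508 in DMSO, and its 95% interval for the log2 fold change ran from -0.061 to 0.061. CENPE, a kinesin motor of the outer kinetochore, had 0.015 ± 0.040, CENPK of the inner kinetochore had -0.0084 ± 0.044, and KNL1, the scaffold that binds BUB1 and BUB3, had -0.042 ± 0.052. The groups of these 8 genes overlapped. The 95% interval of KNL1 ran from -0.15 to 0.065, so a rise of the size seen for BUB1 lay outside it.

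Of the 10 kinesins, 3 rose. KIF20A, a motor of the central spindle needed for cytokinesis, had normalized counts of 4370.2, 4213 and 4255 with Olaparib against 3720.4, 3875 and 3961 with DMSO. The groups were separate, with a log2 fold change of 0.15 ± 0.035 (adjusted p 0.00945), called in every fit with 1 sample left out, where the adjusted p reached 0.0482. KIF2C, the microtubule depolymerase that corrects wrong attachments, had 6975, 6976 and 6942 against 6215, 6476 and 6463. The Olaparib values were almost equal and all above DMSO, and the log2 fold change was 0.13 ± 0.031 (adjusted p 0.0135). The KIF2C call was lost without DMSO replicate 1 (adjusted p 0.0627) or DMSO replicate 3 (0.0508). KIF4A, a chromosome-bound motor that also sets the length of the central spindle, had 5111, 5063 and 4936 against 4629, 4685 and 4607. Its groups were separate, with a log2 fold change of 0.12 ± 0.033 (adjusted p 0.0349), but the call was lost whichever sample was left out, with adjusted p-values of 0.0529 to 0.160, and with upper quartile scaling (0.0518).

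KIF11, the motor that pushes the spindle poles apart, had a log2 fold change close to that of KIF2C, 0.12 ± 0.038, at a lower count. Its normalized counts of 3779.9 to 4151 and 3521 to 3657 did not overlap, and the adjusted p was 0.0667. It passed the test without DMSO replicate 1 (0.0480), with robust dispersions (0.0376) and with no filter on low counts (0.0306). KIF18A, which dampens chromosome movements, had 0.094 ± 0.047 with separate groups. The log2 fold changes were 0.054 ± 0.032 for KIF23, the motor of the centralspindlin complex, and 0.043 ± 0.033 for KIF22, which pushes chromosome arms outward. They were 0.025 ± 0.043 for KIF15, which backs up KIF11, 0.00053 ± 0.041 for KIF20B, which acts in late cytokinesis, and -0.038 ± 0.046 for KIF14, which recruits citron kinase to the midbody. The groups of these last 5 overlapped. The kinesins thus ranged on both sides of 0, with the central spindle motors KIF20A and KIF4A among those that rose and KIF14, KIF20B and KIF23, also of the central spindle or midbody, among those that did not pass.

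The spindle microtubule proteins held the largest change of the 60 genes, and 3 of the 8 rose. CKAP5, a microtubule polymerase (ch-TOG) that lies at chr11:46743048-46846308 on GRCh38, had normalized counts of 14345, 13669.9 and 13741 with Olaparib against 11429.8, 11894 and 11206 with DMSO. The lowest Olaparib value was above the highest DMSO value by more than either group's whole range, and the log2 fold change was 0.27 ± 0.029 (adjusted p 1.16e-07). HMMR, a microtubule-associated protein of the spindle poles at chr5:163460203-163491941, had 11872, 11349 and 11683 against 9877, 9649 and 10118. Its groups were as clearly separate, with a log2 fold change of 0.24 ± 0.029 (adjusted p 1.76e-06). TPX2, which activates AURKA and nucleates microtubules around the chromosomes, was the most abundant of the 3 per length of exon and had 20537, 20138 and 20294 against 18187, 18489.5 and 18693. The groups did not overlap, and the log2 fold change was 0.14 ± 0.027 (adjusted p 0.00123). All 3 were called in every fit with 1 sample left out and in every other alternative.

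The remaining spindle proteins were above 0 and did not pass the test. NUSAP1, which bundles spindle microtubules, had a log2 fold change of 0.10 ± 0.033 with separate groups, and 86.8% of its exon bases also belong to other genes. ASPM, which focuses the spindle poles, had 0.081 ± 0.037, DLGAP5, which stabilizes the microtubules of kinetochore fibers, 0.070 ± 0.036, CKAP2L 0.068 ± 0.041 and CKAP2 0.038 ± 0.032, both of which bind spindle microtubules. The groups of ASPM and CKAP2 overlapped, whereas those of DLGAP5 and CKAP2L did not.

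In cytokinesis, 1 of 5 members rose. ANLN, which encodes anillin, the scaffold of the contractile ring, had normalized counts of 7552, 7063 and 7249 with Olaparib against 6746, 6522 and 6432 with DMSO. Its groups were separate, with a log2 fold change of 0.15 ± 0.032 (adjusted p 0.00396), and the call was lost without DMSO replicate 3 (adjusted p 0.0580). RACGAP1, the partner of KIF23 in centralspindlin, had 0.088 ± 0.030 and PRC1, which bundles the antiparallel microtubules of the central spindle, 0.083 ± 0.028, both with separate groups and with adjusted p-values of 0.116 and 0.110. CIT, the citron kinase of the midbody, and ECT2, the exchange factor that activates RhoA at the division plane, had 0.060 ± 0.037 and 0.039 ± 0.031, with overlapping groups. Of the exon bases of PRC1, 61.9% also belong to other genes.

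Among the 7 anaphase and APC/C genes the 2 that rose both act with the APC/C itself. UBE2C, the ubiquitin-conjugating enzyme that starts chains on APC/C substrates, lies at chr20:45812576-45816957 and had normalized counts of 8655, 8556 and 8602 with Olaparib against 7192, 7139 and 7438 with DMSO. The groups were far apart relative to their spread, and the log2 fold change was 0.25 ± 0.030 (adjusted p 1.18e-06). CDC20, the activator of the APC/C that the checkpoint sequesters, had 11029.6, 11456 and 11363 against 9767, 9942 and 10383. Its groups were separate as well, with a log2 fold change of 0.17 ± 0.030 (adjusted p 0.000371). Both genes have annotated pseudogenes, of which CDC20P1 held reads equal to 3.72% of the CDC20 count and UBE2CP5 1.21% of the UBE2C count. How alike the sequences are was not measured.

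The targets and guards of separation did not pass the test. ESPL1, which encodes separase, the protease that cuts cohesin, was the lowest of the 60 log2 fold changes at -0.068 ± 0.039 (adjusted p 0.444), with normalized counts of 2514 to 2579 after Olaparib against 2589.7 to 2750.2 in DMSO. PTTG1, which encodes securin, the inhibitor of separase, had 0.048 ± 0.032 (adjusted p 0.521). SGO1 and SGO2, the shugoshins that protect centromeric cohesin, had 0.014 ± 0.048 and 0.012 ± 0.043. CDCA3, a trigger of mitotic entry that is itself degraded through the APC/C, had 0.12 ± 0.042 (adjusted p 0.107), with separate groups.

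Of the CKS proteins, small subunits that bind cyclin-dependent kinases, 0 of 2 rose or fell in edgeR, DESeq2 and limma voom, and 1 was higher at an unadjusted p under 0.05. CKS2 had normalized counts of 3977, 4048 and 4336 with Olaparib against 3647, 3774 and 4076 with DMSO. The highest DMSO value lay above the lowest Olaparib values, and the log2 fold change was 0.10 ± 0.040 (adjusted p 0.173). CKS1B had 0.048 ± 0.040, also with overlapping groups.

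Condensin had 1 of 4 members called. NCAPD2, a regulatory subunit of condensin I, had normalized counts of 11629.5, 11721 and 11562 with Olaparib against 10368, 11122 and 11021 with DMSO. The groups were separate, with 1 DMSO value well under the other two, and the log2 fold change was 0.10 ± 0.030 (adjusted p 0.0449). This call was the closest to the threshold and was lost without any 1 sample other than Olaparib replicate 1 (adjusted p up to 0.258, without DMSO replicate 1) and with upper quartile scaling (0.0665). The other condensin subunits lay at 0 within their error. The log2 fold changes were 0.0070 ± 0.028 for SMC4 and -0.0020 ± 0.041 for SMC2, the ATPase pair of both condensins, and -0.011 ± 0.029 for NCAPG of condensin I. SMC4 was also the member with the most reads, 19524 to 21001 after Olaparib and 19865 to 20499.8 in DMSO, and its 95% interval ran from -0.051 to 0.065.

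**Figure D3:**
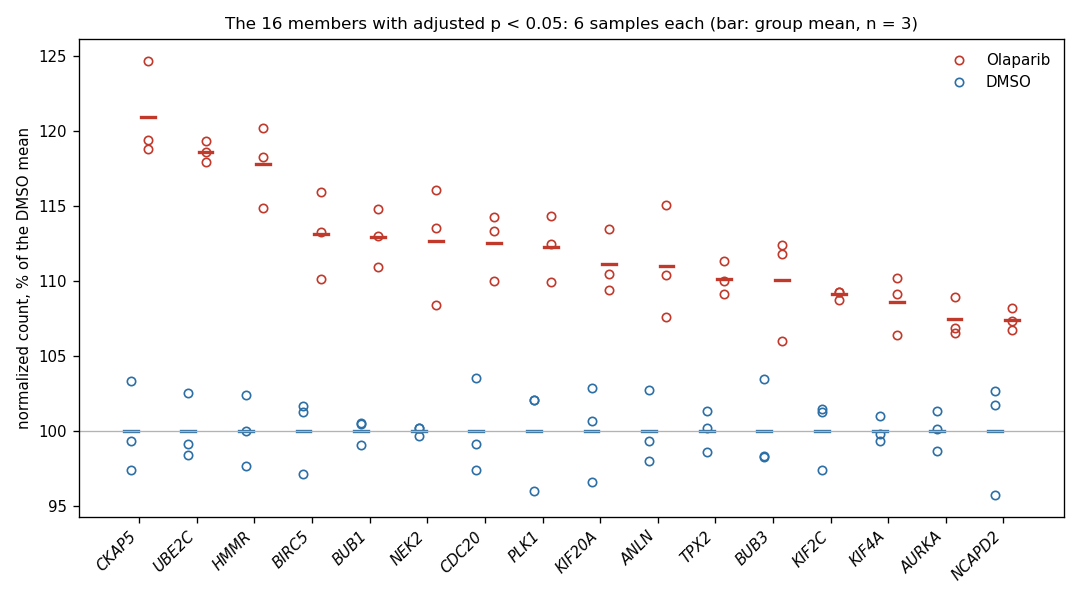
Normalized counts of the 16 members that rose, in each of the 6 samples (circles), as a percentage of the DMSO mean of the same gene (vertical axis, not starting at 0), with a bar for each group mean (n = 3). Red is Olaparib and blue is DMSO; genes run from the largest log2 fold change, CKAP5 with 0.27, to the smallest, NCAPD2 with 0.10, and within each gene the red circles all lie above the blue ones.

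Set side by side, the subgroups differed in their medians, although differences between subgroups were not tested. The median log2 fold change was 0.17 for the mitotic kinases, 0.12 for the spindle checkpoint, 0.090 for the spindle microtubule proteins and 0.083 for both the chromosomal passenger complex and cytokinesis. It was 0.076 for the CKS proteins, 0.074 for the kinesins, 0.048 for the anaphase and APC/C genes, 0.015 for the kinetochore and 0.0025 for condensin. In the single samples the checkpoint medians were 0.14, 0.12 and 0.098 after Olaparib and -0.013, -0.0093 and 0.0068 in DMSO, and the kinesin medians 0.11, 0.064 and 0.056 and 0.0051, 0.0095 and 0.014. These groups of samples did not overlap. For cytokinesis the Olaparib medians were 0.10, 0.082 and 0.067 and the DMSO medians -0.010, 0.0027 and 0.0074, again apart.

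The kinetochore medians were closer, 0.062, 0.021 and 0.050 after Olaparib and 0.012, -0.030 and 0.0090 in DMSO, with the lowest Olaparib sample just above the highest DMSO sample. The condensin medians were 0.041, -0.029 and 0.0021 and 0.013, -0.018 and 0.0055, and these overlapped. The order of condensin, kinetochore and the other subgroups is therefore a description of few genes, from 2 for the CKS proteins to 11 for the kinetochore. Over all the alternatives the condensin median ran from -0.014 to 0.036 and the kinetochore median from -0.0019 to 0.039, while the checkpoint median ran from 0.11 to 0.13 and that of the mitotic kinases from 0.14 to 0.17.

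**Figure D4:**
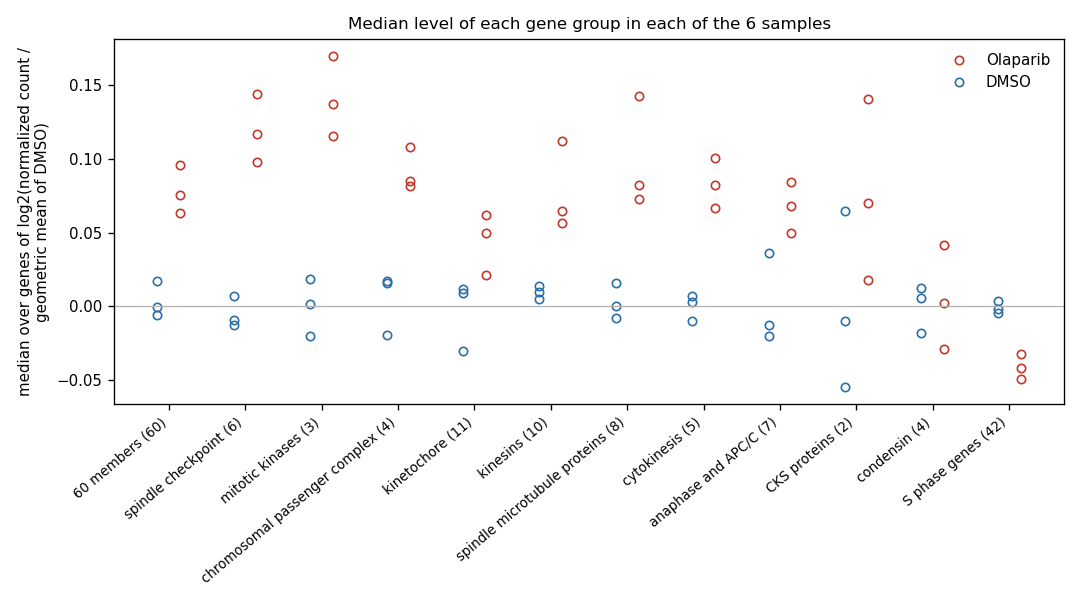
Median over the genes of each group of the log2 ratio of a sample's normalized count to the geometric mean of the 3 DMSO samples (vertical axis), with 1 circle per sample, red for Olaparib and blue for DMSO, and the number of genes in parentheses. The red circles lie above the blue ones for the 60 members together and for most subgroups, overlap with them for the CKS proteins and condensin, and lie below them for the S phase genes.

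The members differed widely in level, and those that passed the test were on the whole the more abundant ones. Per length of exon they ran from 3.22 ± 0.101 FPKM in DMSO (SD, n = 3) for CIT to 166 ± 9.56 for CKS2, with a median of 26.9 FPKM. UBE2C, TPX2 and CDC20 followed CKS2 at 151 ± 3.31, 137 ± 1.89 and 133 ± 4.21 FPKM, and of these 4 neighbors TPX2 and CDC20 differed by less than their spread. At the lower end KNL1, with 3.31 ± 0.267 FPKM, lay within its spread of CIT, and MAD1L1 followed with 4.58 ± 0.229. The length used joins all annotated exons of a gene, 28605 bases for CIT and 10250 for KNL1. By mean normalized count in DMSO, CIT with 3442 stood above KNL1 with 1270. The 16 members that rose had a median of 40.6 FPKM and the 44 others one of 19.4 FPKM.

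By read count, 15 of the 30 members with the higher counts rose, against 1 of the 30 with the lower counts, NEK2. The median standard error of the log2 fold change was 0.030 in the upper group and 0.041 in the lower one, and the median log2 fold change 0.10 and 0.058. KIF2C and KIF11 had similar log2 fold changes, with standard errors of 0.031 and 0.038, and KIF11 did not pass. They differed in read count and also in spread, with SDs of 19.5 and 212 normalized counts after Olaparib. In DMSO the order of the spreads was reversed, with SDs of 147 for KIF2C and 68.5 for KIF11. The part of read count and of spread in the calls was not tested. A member that did not pass may have moved by as much as one that did. ZWINT, SMC4 and NCAPG had counts as high as many called members and differences near 0.

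**Figure D5:**
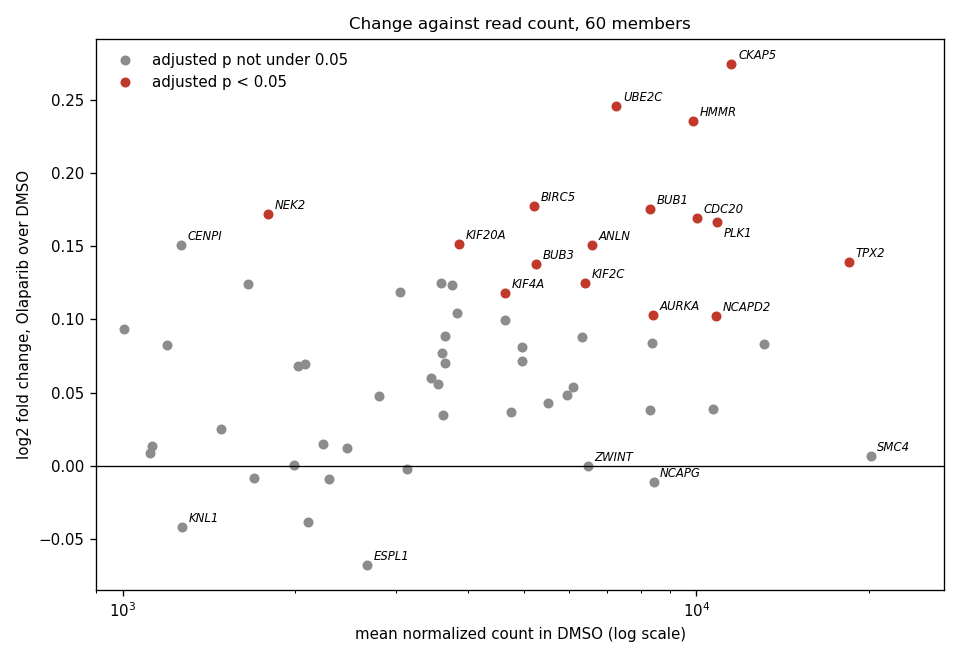
Log2 fold change of the 60 members, Olaparib over DMSO (vertical axis), against the mean normalized count in the 3 DMSO samples (horizontal axis, log scale). Red points passed an adjusted p of 0.05 and grey points did not, and NEK2 is the only red point among the 30 members with the lower counts.

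Outside the 60 members, 23 regulators of entry into and exit from mitosis were measured. Of these, 6 rose and 0 fell, where 2.15% of all genes tested rose and 1.21% fell, and the median log2 fold change was 0.059. DESeq2 and limma voom made the same counts of 6 and 0. Before adjustment 9 were higher and 0 lower at p under 0.05, counts for which the share of all genes was not counted. TOP2A, the topoisomerase that untangles chromosomes, had normalized counts of 15403, 14376 and 14506 with Olaparib against 12691, 11766 and 11727 with DMSO. Its groups were separate, with a log2 fold change of 0.29 ± 0.032 (adjusted p 1.48e-07), slightly above that of CKAP5. CDK1, the kinase that drives mitosis, and its cyclins CCNB1 and CCNB2 had log2 fold changes of 0.18 ± 0.031, 0.14 ± 0.029 and 0.15 ± 0.036. CDC25B, the phosphatase that activates CDK1, had 0.17 ± 0.033, and MYBL2, an activator of CHR promoters, 0.13 ± 0.029. The groups of these 6 genes did not overlap, and their adjusted p-values ran from 1.48e-07 to 0.0113. CCNB2 lost its call without Olaparib replicate 3 or DMSO replicate 2 (adjusted p up to 0.0633), and MYBL2 without Olaparib replicate 2 or DMSO replicate 2 (up to 0.0684).

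Other regulators of the same phase did not pass the test. CCNA2, a cyclin of S and G2 phase, had 0.077 ± 0.035 (adjusted p 0.275) with separate groups, and FOXM1, an activator of CHR promoters, 0.035 ± 0.036 (adjusted p 0.722). MKI67, which encodes the proliferation marker Ki-67, had -0.054 ± 0.032 (adjusted p 0.465), with normalized counts of 10069.7 to 10894 and 10509 to 11448 that overlapped.

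Further subunits of the complexes to which the members belong mostly did not pass the test, as was so for most genes. Of all genes tested, 2.15% rose and 1.21% fell. Among the 6641 genes counted at or above the lowest member, 4.22% rose and 1.66% fell. Whether the short lists below differ from these shares was not tested. Of 18 inner kinetochore and MIS12 complex genes, 0 rose or fell in edgeR, DESeq2 and limma voom, 1 was higher and 0 lower at an unadjusted p under 0.05, and the median log2 fold change was -0.0044. Of 14 augmin and gamma-tubulin genes, which nucleate microtubules, 0 rose or fell in the 3 tools, 1 was lower and 0 higher at an unadjusted p under 0.05, and the median was 0.014. The median was 0.046 for the SKA, RZZ and CENPA loading genes and 0.066 for the condensin subunits outside the members. Of 13 genes of the SKA and RZZ complexes and of CENPA loading, 1 rose, KNTC1, the ROD subunit of RZZ, with 0.17 ± 0.039 (adjusted p 0.00719, and 0.0866 without DMSO replicate 2). Of 4 other condensin subunits, 1 rose, NCAPH of condensin I, with 0.15 ± 0.038 (adjusted p 0.0205), a call lost without Olaparib replicate 2, Olaparib replicate 3 or DMSO replicate 3 (up to 0.0888). NCAPH and NCAPD2 thus rose while NCAPG, the third regulatory subunit of condensin I, did not pass.

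Of 17 APC/C subunits and partners, 2 rose and 0 fell in all 3 tools, where 2.15% of all genes tested rose and 1.21% fell in edgeR. Before adjustment 3 were higher and 1 lower at p under 0.05, and the median log2 fold change was 0.020. ANAPC1, the largest subunit of the APC/C, had normalized counts of 1878, 1786 and 1833 with Olaparib against 1512, 1579.9 and 1440.2 with DMSO, groups far apart, with a difference of 0.28 ± 0.044 (adjusted p 8.42e-05). UBE2S, the enzyme that extends the ubiquitin chains that UBE2C starts, had 0.21 ± 0.040 (adjusted p 0.00125). Both kept their call whichever sample was left out. Of 12 cohesin genes, with a median of -0.0071, 1 rose and 1 fell, beside the same shares of all genes. CDCA5, which encodes sororin, the protein that keeps sister chromatids joined, rose by 0.14 ± 0.034 on the log2 scale (adjusted p 0.0115), a call lost without Olaparib replicate 2 or DMSO replicate 2 (up to 0.0840). STAG1, a cohesin subunit, was lower in each Olaparib sample, 1432, 1379.9 and 1425 against 1709.7, 1655 and 1639, with a log2 fold change of -0.24 ± 0.042 (adjusted p 0.000430), and 21.2% of its exon bases also belong to other genes.

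Of 42 genes of the S phase list of the Seurat package that were measured, 6 fell and 0 rose, where 1.21% of all genes tested fell and 2.15% rose. DESeq2 and limma voom also called 6 lower and 0 higher. Before adjustment 13 were lower and 0 higher at p under 0.05, counts for which the share of all genes was not counted. The median log2 fold change was -0.042, with 29 of 42 below 0, and the sample medians were -0.033, -0.049 and -0.042 after Olaparib and -0.0044, -0.0018 and 0.0033 in DMSO, which did not overlap. CCNE2, a cyclin of the G1 to S transition, had 1009.6, 831 and 918 against 1269, 1116 and 1196 normalized counts and a log2 difference of -0.38 ± 0.055 (adjusted p 3.65e-05). DTL, which targets replication licensing factors for degradation, had 1489, 1409 and 1422 against 1804, 1778 and 1801 and -0.32 ± 0.042 (adjusted p 6.01e-06). For both genes each Olaparib value lay below each DMSO value. MCM6 of the replicative helicase, UNG, a uracil glycosylase, UBR7 and RRM2, a subunit of ribonucleotide reductase, had -0.22, -0.20, -0.17 and -0.11. The calls of UBR7 and RRM2 were each lost without 4 of the 6 samples in turn, with adjusted p-values of up to 0.189 and 0.154. For UBR7 these were Olaparib replicate 3 and each DMSO replicate, and for RRM2 they were replicates 2 and 3 of both groups.

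Of 10 genes of G1 arrest and p53 targets, 0 rose and 1 fell in all 3 tools, where 2.15% of all genes tested rose and 1.21% fell in edgeR. Before adjustment 1 was higher and 3 were lower at p under 0.05, with a median log2 fold change of -0.060. CDKN1A, which encodes the inhibitor p21, had normalized counts of 142, 135 and 153 with Olaparib against 123, 105 and 127 with DMSO. The groups were separate at a low count, and the log2 fold change was 0.28 ± 0.11 (adjusted p 0.208). The gene that fell, ZMAT3, had -0.21 ± 0.051 (adjusted p 0.0128), a call lost without Olaparib replicate 2, Olaparib replicate 3 or DMSO replicate 1 (up to 0.182).

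For 14 of the 60 members more than 5% of the exon bases also belong to other annotated genes, and because the strand setting of the counting is not stated, reads in these bases may have been assigned or dropped in ways that cannot be checked here. Among the members that rose these were PLK1, NCAPD2 (5.92%) and KIF20A (5.35%). The highest shares, NUSAP1 and PRC1, were of members that did not pass, as were SMC4 (22.0%) and NCAPG (33.7%).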

How the data were processed

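RNA-seq of 3 Olaparib and 3 DMSO samples of UWB1.289 cells was analysed from the gene table that the authors deposited, which holds raw read counts per Ensembl gene, whole numbers with no normalization. According to the study's methods and the submitters' processing notes, the authors trimmed adapters with Trimmomatic, aligned poly(A)-selected stranded libraries to GRCh38 (hg38) with STAR, identified duplicates with Picard and counted with featureCounts. Whether duplicates were removed and which strand setting was used are not given in the sources used here, which bears on overlapping genes. Samples were grouped by their labels.

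Identifiers whose counts summed to more than 10 were kept (21729 of 63677) and scaled by TMM, and Olaparib was compared with DMSO by the quasi-likelihood test of edgeR 4.0.16 (R 4.3.3) with Benjamini-Hochberg adjustment over all of them. A call is an adjusted p under 0.05. Normalized counts are counts scaled by effective library size to its mean. FPKM, used only to compare levels between genes, divides by the joined length of all exons of a gene in GENCODE 44 on GRCh38. Errors of log2 fold changes are standard errors, errors of levels are SDs (n = 3), and intervals are 95%. P-values set the difference between the groups against the spread between replicates of this cell line, which is estimated with help from other genes. They do not cover variation between cell lines. Library sizes of 35360458 to 39640775 counts and a common biological coefficient of variation of 0.035 set the precision.

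The members and the gene lists were chosen with earlier results of these data known, and no list was tested as a set. Any member may be named. Values in every sample are given for members with an adjusted p under 0.05 and for the member with the largest change of each subgroup, and outside the members 9 fixed cell cycle genes and the pathway genes that passed the test are named. S phase genes came from Seurat 5.3.0 and 42 of 43 matched. The alternatives were DESeq2 1.42.0, limma voom (limma 3.58.1), robust dispersions, other scalings and filters, a replicate block and leaving out each sample. The fitting steps were tested on simulated data. Promoter windows came from RefSeq on GRCh38.p14 and were searched for exact letters.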

Additional observations from a re-analysis of the deposited data

How the results depend on the processing

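The number of members called higher was 16 with DESeq2, limma voom, DESeq2 size factors and edgeR's own filter, 19 with robust dispersions or no filter on low counts, and 13 with upper quartile scaling, and 0 members were called lower in each. Over all genes these fits called 525 (DESeq2) to 888 (no filter on low counts) in either direction, and the main fit called 730. Leaving out 1 sample gave 10 to 15 members higher, 0 lower and, past a 1.2-fold change, 0 to 1 higher. Those fits called 398 to 870 of all genes in either direction. Of the 16 called members, 9 were called in all 14 alternatives (BUB1, PLK1, BIRC5, KIF20A, TPX2, HMMR, CKAP5, CDC20 and UBE2C), and 13 in the 8 that keep every sample. The median log2 fold change of the members stayed between 0.070 and 0.083. Upper quartile scaling moved the median of all genes to -0.013 and left 49 of the 60 members above 0.

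With the replicate number as a block, 26 members were called higher and 0 lower. Calls over all genes, in either direction, also went up, from 730 without the block to 1322 with it. Samples with the same number did not deviate together (correlations of -0.15, 0.19 and -0.21 over 13121 genes), and not every sample correlated best with its own number, so the numbers are not taken to pair the samples. The cause of the larger counts was not tested.

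Members near 0 changed sign under some settings, without passing the test in any. With upper quartile scaling the log2 fold changes were -0.0085 for KIF20B, -0.0022 for SMC4, -8.7e-05 for SPC25 and -0.0090 for ZWINT. With edgeR's own filter they were -0.0017 for KIF20B and -0.0022 for ZWINT, and with limma voom 0.00050 for SMC2. With 1 sample left out the log2 fold changes ran from -0.0062 to 0.039 for CENPE, -0.040 to 0.031 for CENPK, -0.097 to 0.012 for KIF14, -0.029 to 0.021 for KIF20B, -0.096 to 0.025 for KNL1, -0.019 to 0.0037 for NCAPG, -0.016 to 0.069 for SGO1, -0.027 to 0.040 for SGO2, -0.042 to 0.050 for SMC2, -0.019 to 0.032 for SMC4, -0.042 to 0.033 for SPC24, -0.025 to 0.056 for SPC25 and -0.0019 to 0.0028 for ZWINT. The depth allowed standard errors of 0.027 to 0.052 for the members, and the smallest log2 fold change that passed the test among them was 0.10. DESeq2 gave no adjusted p for 9693 genes of low count.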
